A study of Homo sapiens with 8 samples.

Results

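The genes described here are 10 members of the AP-1 and immediate early group, chosen by name: FOS, FOSB, FOSL1 and FOSL2 of the FOS family, JUN, JUNB and JUND of the JUN family, and EGR1, IER2 and MYC. All 10 were found among the 38032 gene identifiers of the files, and all 10 were among the 13943 genes that had enough counts to be tested. HepG2, a human line derived from a hepatocellular carcinoma and labelled as wild type (WT), was primed for 8 days either on standard flat culture-ware (2D-primed, 4 libraries) or on the porous polystyrene membrane Alvetex (3D-primed, 4 libraries). Both groups came from 1 pool of cells, had the same medium with serum, and were lifted from their surface with trypsin before lysis. The part of this lifting in the RNA levels was not tested. The 3D-primed cells were seeded at the higher density, so substrate and seeding density cannot be told apart. Polyadenylated RNA was sequenced, and each library held 21599630 to 27844077 estimated counts.

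AP-1 is a family of transcription factors in which a FOS protein pairs with a JUN protein through a leucine zipper, or JUN proteins pair with one another. The pair binds a short DNA element that was first described as the target of phorbol ester signalling. Immediate early genes are transcribed within minutes of a growth factor, stress or mechanical signal without new protein synthesis, mostly through ERK, JNK and p38 kinases acting on SRF, TCF, CREB and pre-existing AP-1. In liver, JUN and its partners are known from regeneration and from tumour growth.

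Between the groups, the RNAs of the 10 members did not move together. FOSL2, FOSL1, JUN and JUND were lower in 3D-primed cells, by 3.14-fold, 2.38-fold, 2.40-fold and 1.64-fold, respectively. EGR1 and IER2 were higher in 3D-primed cells, by 3.17-fold and 1.83-fold. JUNB was called higher by a small margin that several single libraries decided, and FOS, FOSB and MYC were not called. In all, 7 of the 10 members were called (4 lower and 3 higher in 3D-primed cells), against 63.9% of all genes tested (31.6% lower and 32.4% higher in the 3D-primed group). The number called is therefore close to the background.

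Stretches of 5 promoters are shown because they hold matches to elements of kinds known to switch these genes on and to link them. They are taken from RefSeq on GRCh38.p14 and read 5′ to 3′ on the strand of the gene. Capitals mark the matches to TGANTCA (the AP-1 element), TGACNTCA (the CRE and the variant of it in the JUN promoter), TGACGT (the core of the CRE, which overlaps TGACNTCA) and the CArG box of SRF, searched on both strands. The stretches are chr5:138465329-138465473 (plus strand), chr14:75278678-75278822 (plus strand), chr1:58784053-58784197 (minus strand), chr19:18281628-18281832 (minus strand) and chr2:28392851-28392879 (plus strand), in the order printed.
EGR1: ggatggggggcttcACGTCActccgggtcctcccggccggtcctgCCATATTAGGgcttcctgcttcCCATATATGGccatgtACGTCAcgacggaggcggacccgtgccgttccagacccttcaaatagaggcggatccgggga
FOS: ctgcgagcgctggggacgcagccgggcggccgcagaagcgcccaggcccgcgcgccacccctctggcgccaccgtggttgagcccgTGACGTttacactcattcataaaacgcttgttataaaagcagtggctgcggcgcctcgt
JUN: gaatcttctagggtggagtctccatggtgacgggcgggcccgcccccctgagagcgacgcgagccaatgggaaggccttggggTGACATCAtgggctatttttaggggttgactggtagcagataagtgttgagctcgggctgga
JUND: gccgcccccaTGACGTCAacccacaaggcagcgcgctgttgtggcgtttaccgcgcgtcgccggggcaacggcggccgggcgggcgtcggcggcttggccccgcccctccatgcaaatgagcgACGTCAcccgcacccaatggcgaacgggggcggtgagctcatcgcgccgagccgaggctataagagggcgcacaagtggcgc
FOSL2: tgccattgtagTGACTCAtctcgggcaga

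Promoters of 8 members were searched, each from 250 bases before to 50 bases after the start of transcription in RefSeq. FOSL1 had no entry among the promoters and MYC was left out by choice, so nothing is said of either. For FOSL2 that start lies inside the gene as GENCODE places it, whose positions are given with each gene. A CArG box was found in 1 of them, that of EGR1, at -105 and -83 from the start, and in 1.29% of the 35116 promoters of the table. The core TGACGT was present in 5 of the 8 (EGR1, FOS, FOSB, FOSL2 and JUND) and in 7.98% of all promoters. TGACNTCA was found in JUN at -67 and in JUND at -200, against 7.72% of all promoters. The AP-1 element TGANTCA was found in FOSL2 alone among the 8, at 5 after the RefSeq start, and in 7.71% of all promoters. GCGNGGGCG, the element bound by EGR1, was found in EGR1 itself and in 9.43% of all promoters. The match in EGR1 to its own element lies outside the stretch printed, as does that of FOSL2 to TGACGT. These matches describe letters in a window and do not show binding. Bases farther than 250 before the start were not searched, so a CArG box or other element there would have been missed.

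Levels are given as CPM (counts scaled to a common library total) after TMM scaling, which corrects library size for composition, and differences as log2 fold changes of 3D-primed over 2D-primed with their standard error (SE). A gene was called at an adjusted p below 0.05 in edgeR's quasi-likelihood test, with Benjamini-Hochberg adjustment over all genes tested. The labels do not say that replicates are separate cultures, so p measures the spread between these libraries only.

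**Figure D1:**
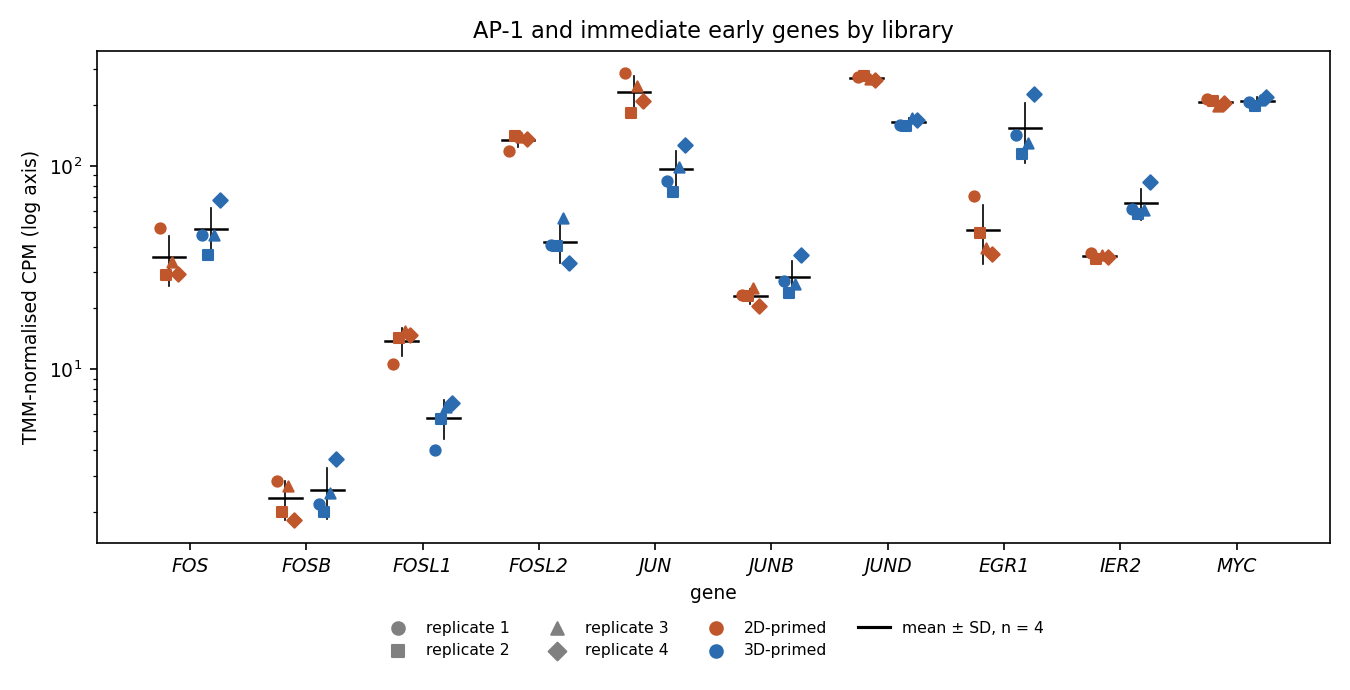
Level of each member in each library in TMM-normalised CPM on a log axis, with 2D-primed libraries in orange, 3D-primed libraries in blue, a symbol for each replicate number, and bars for mean ± SD (n = 4). The groups are apart for FOSL1, FOSL2, JUN, JUND, EGR1 and IER2, and overlap for FOS, FOSB, JUNB and MYC.

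Among the FOS family, FOSL2 (ENSG00000075426), which encodes the FOS-related protein FRA-2, lies on chromosome 2 of GRCh38, from 28392448 to 28417317. It was counted at 119, 141, 139 and 135 CPM in 2D-primed replicates 1 to 4 and at 40.7, 40.6, 55.2 and 33.2 CPM in 3D-primed replicates 1 to 4. The lowest 2D-primed library thus held more than any 3D-primed library. The means were 134 ± 10.1 and 42.4 ± 9.18 CPM (SD, n = 4), a log2 difference of -1.65 ± 0.129 (SE; edgeR, adjusted p = 1.9e-06). Of the 10 members, FOSL2 had the lowest log2 fold change, and leaving out any 1 library kept it from -1.81 to -1.55.

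FOSL1 (ENSG00000175592, chromosome 11, from 65892049 to 65900573) encodes FRA-1, a FOS protein that lacks the activation domain of FOS and is known from migrating and invasive cells. Its levels were 10.6, 14.3, 15.4 and 14.8 CPM in 2D-primed and 4.04, 5.71, 6.56 and 6.87 CPM in 3D-primed replicates 1 to 4. Replicate 1 was the lowest library of each group, and the groups did not overlap. From 13.8 ± 2.15 to 5.79 ± 1.27 CPM (SD, n = 4), the log2 fold change was -1.25 ± 0.166 (SE; edgeR, adjusted p = 8.2e-05).

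FOS (ENSG00000170345, chromosome 14, from 75278826 to 75282230), the founding member, had a different profile. The 2D-primed replicates 1 to 4 held 49.6, 29.2, 33.6 and 29.5 CPM, and the 3D-primed replicates 45.5, 36.6, 45.8 and 67.7 CPM. The groups overlapped, because 2D-primed replicate 1 lay above 3 of the 4 3D-primed libraries. The means were 35.5 ± 9.65 and 48.9 ± 13.2 CPM (SD, n = 4), a log2 difference of 0.47 ± 0.206 (SE) that did not pass the threshold (edgeR, adjusted p = 0.070). Single libraries decided this call. Without 2D-primed replicate 1 the log2 fold change of FOS was 0.67 (edgeR, adjusted p = 0.0098), without 3D-primed replicate 2 it was 0.57 (adjusted p = 0.037), and without 3D-primed replicate 4 it was 0.27 (adjusted p = 0.21). Over all alternatives the adjusted p ran from 0.0030 to 0.21.

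FOSB (ENSG00000125740, chromosome 19, from 45467995 to 45475179) was the least abundant member, with 43 to 91 counts per library. It was measured at 2.84, 1.99, 2.69 and 1.81 CPM in 2D-primed and 2.19, 1.99, 2.47 and 3.61 CPM in 3D-primed replicates 1 to 4, so the groups overlapped. The log2 fold change was 0.14 ± 0.226 (SE; edgeR, adjusted p = 0.61). Without 3D-primed replicate 4 it was -0.07 (edgeR, adjusted p = 0.78), so no direction could be given for FOSB. The gene overlaps ERCC1 on the opposite strand, and the sources used here do not state a strand setting for the counting.

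Of the JUN family, JUN (ENSG00000177606, chromosome 1, from 58776845 to 58784048) encodes the main activating partner of FOS proteins. It was counted at 286, 182, 246 and 208 CPM in 2D-primed replicates 1 to 4 and at 84.2, 74.65, 99.2 and 126 CPM in 3D-primed replicates 1 to 4. The 2D-primed libraries differed among themselves by up to 1.57-fold and the 3D-primed by up to 1.69-fold, and the groups did not overlap. The means of 230.4 ± 45.2 and 96.1 ± 22.5 CPM (SD, n = 4) gave a log2 difference of -1.26 ± 0.173 (SE; edgeR, adjusted p = 1.0e-04). Leaving out any 1 library kept it from -1.42 to -1.14.

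JUND (ENSG00000130522, chromosome 19, from 18279694 to 18281622), the JUN protein found in resting cells, varied little between replicates. Its levels were 272, 277, 266 and 264 CPM in 2D-primed and 159.6, 156, 173 and 168 CPM in 3D-primed replicates 1 to 4. The step from 269.8 ± 5.79 to 164 ± 7.46 CPM (SD, n = 4) was a log2 difference of -0.72 ± 0.0413 (SE; edgeR, adjusted p = 2.7e-07), the smallest adjusted p of the 10 members. Its log2 difference was nearer 0 than those of JUN, FOSL1 and FOSL2, and its replicates lay closer together.

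JUNB (ENSG00000171223, chromosome 19, from 12791486 to 12793315), a JUN protein that often opposes JUN, pointed the other way. The levels were 23.2, 22.9, 25.1 and 20.4 CPM in 2D-primed and 27.3, 23.8, 26.3 and 36.4 CPM in 3D-primed replicates 1 to 4, and the groups overlapped. Means of 22.9 ± 1.94 and 28.5 ± 5.48 CPM (SD, n = 4) gave a log2 difference of 0.31 ± 0.121 (SE; edgeR, adjusted p = 0.043). The call of JUNB was lost without 3D-primed replicate 4 (0.17 on the log2 scale by edgeR, adjusted p = 0.079), and also without 2D-primed replicate 1 (adjusted p = 0.071), 2D-primed replicate 2 (adjusted p = 0.078), 2D-primed replicate 4 (adjusted p = 0.11) or 3D-primed replicate 1 (adjusted p = 0.060). The gene overlaps HOOK2 on the opposite strand.

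Among the other immediate early genes, EGR1 (ENSG00000120738, chromosome 5, from 138465479 to 138469303) encodes a zinc finger factor that serum, ERK signalling and stretch are known to induce. It was counted at 70.8, 46.6, 39.4 and 37.0 CPM in 2D-primed replicates 1 to 4 and at 142, 115, 129 and 226 CPM in 3D-primed replicates 1 to 4. The highest library of each group stood well above the rest, yet the lowest 3D-primed library lay above the highest 2D-primed one. The means were 48.5 ± 15.4 and 153 ± 50.05 CPM (SD, n = 4), with a log2 difference of 1.66 ± 0.247 (SE; edgeR, adjusted p = 1.8e-04). Leaving out any 1 library kept it from 1.41 to 1.90, and EGR1 was called each time.

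IER2 (ENSG00000160888, chromosome 19, from 13150411 to 13154911), a nuclear protein induced early by growth factors, had 37.2, 34.9, 36.4 and 35.5 CPM in 2D-primed and 61.4, 57.9, 60.8 and 82.95 CPM in 3D-primed replicates 1 to 4. The 2D-primed libraries were nearly equal and all lay below the 3D-primed ones. From 36.0 ± 1.00 to 65.8 ± 11.6 CPM (SD, n = 4), IER2 rose with a log2 difference of 0.87 ± 0.103 (SE; edgeR, adjusted p = 3.5e-05). Without 3D-primed replicate 4 the log2 fold change was 0.74.

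MYC (ENSG00000136997, chromosome 8, from 127735434 to 127742951), a growth-promoting factor that quiescent cells induce early after serum, was among the more abundant members. It was measured at 213, 209, 197 and 204 CPM in 2D-primed and 207, 198, 210.2 and 219 CPM in 3D-primed replicates 1 to 4. Means of 206 ± 6.79 and 208 ± 8.85 CPM (SD, n = 4) gave a log2 difference of 0.02 ± 0.0426 (SE; edgeR, adjusted p = 0.74). The sign of this value changed without single libraries, and over all alternatives the adjusted p ran from 0.19 to 0.95.

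The groups did not overlap for 6 of the 10 members, which compares with 59.8% of all genes tested. Of these, 4 were higher in 2D-primed cells (FOSL1, FOSL2, JUN and JUND, against 29.5% of all genes) and 2 higher in 3D-primed cells (EGR1 and IER2, against 30.2%). Of the members, 4 were called with at least a 2-fold difference (FOSL1, FOSL2, JUN and EGR1), where 11.9% of all genes tested were, and 3 of these 4 were higher in 2D-primed cells, where 7.01% of all genes were. In bulk RNA, fewer cells that express a gene and less RNA per cell cannot be told apart.

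Since the members of each family differed in direction and size, the composition of each family was compared per length, as CPM per kb of the gene's longest coding transcript in GENCODE. On this scale FOSL2 was the leading FOS-family RNA in 2D-primed cells, at 19.9 ± 1.51 CPM per kb, next to FOS at 16.9 ± 4.58, FOSL1 at 8.10 ± 1.26 and FOSB at 0.618 ± 0.134. The 2D-primed levels of FOSL2 and FOS did not differ beyond their spread, and with the mean length of each gene's transcripts FOS had the larger share there (44.3 ± 8.40% against 39.5 ± 5.44%). In 3D-primed cells FOS led at 23.2 ± 6.28 CPM per kb, followed by FOSL2 at 6.32 ± 1.37, FOSL1 at 3.40 ± 0.746 and FOSB at 0.68 ± 0.192 (SD, n = 4). The share of FOS in the sum of its family was 48.8, 31.7, 34.4 and 32.3% in 2D-primed replicates 1 to 4 and 70.6, 63.7, 63.1 and 76.4% in 3D-primed replicates 1 to 4. No 2D-primed share of FOS reached the 3D-primed ones, although the FOS level itself overlapped. The sum of the FOS family went from 45.5 ± 2.32 to 33.6 ± 6.35 CPM per kb (SD, n = 4), without overlap. With the mean length of each gene's transcripts the sums of the groups overlapped. The share of FOSL2 was 43.9 ± 5.03% with 2D priming and 19.4 ± 5.34% with 3D priming, and that of FOSL1 17.9 ± 3.34% and 10.2 ± 1.97%. No test was made on shares, which depend on one another.

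JUND was the leading JUN-family RNA in both groups, at 139.9 ± 3.00 CPM per kb with 2D priming and 85.1 ± 3.87 with 3D priming. JUN came next with 70.7 ± 13.9 and 29.5 ± 6.92 CPM per kb, and JUNB last with 12.5 ± 1.06 and 15.5 ± 2.99 (SD, n = 4). The order within the family was the same in each group, and the sum of the 3 genes went from 223 ± 14.1 to 130.1 ± 12.5 CPM per kb. The share of JUNB was 5.25 to 6.04% in 2D-primed and 10.7 to 13.7% in 3D-primed libraries, without overlap. That of JUN was 26.3 to 36.3% and 19.6 to 26.6%, and that of JUND 58.4 to 67.8% and 59.7 to 69.3%, and both overlapped. Of the other members, MYC was at 55.3 ± 1.82 and 56.0 ± 2.38, EGR1 at 15.5 ± 4.92 and 48.8 ± 16.0, and IER2 at 12.3 ± 0.342 and 22.4 ± 3.94 CPM per kb in the 2D and 3D groups, respectively.

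**Figure D2:**
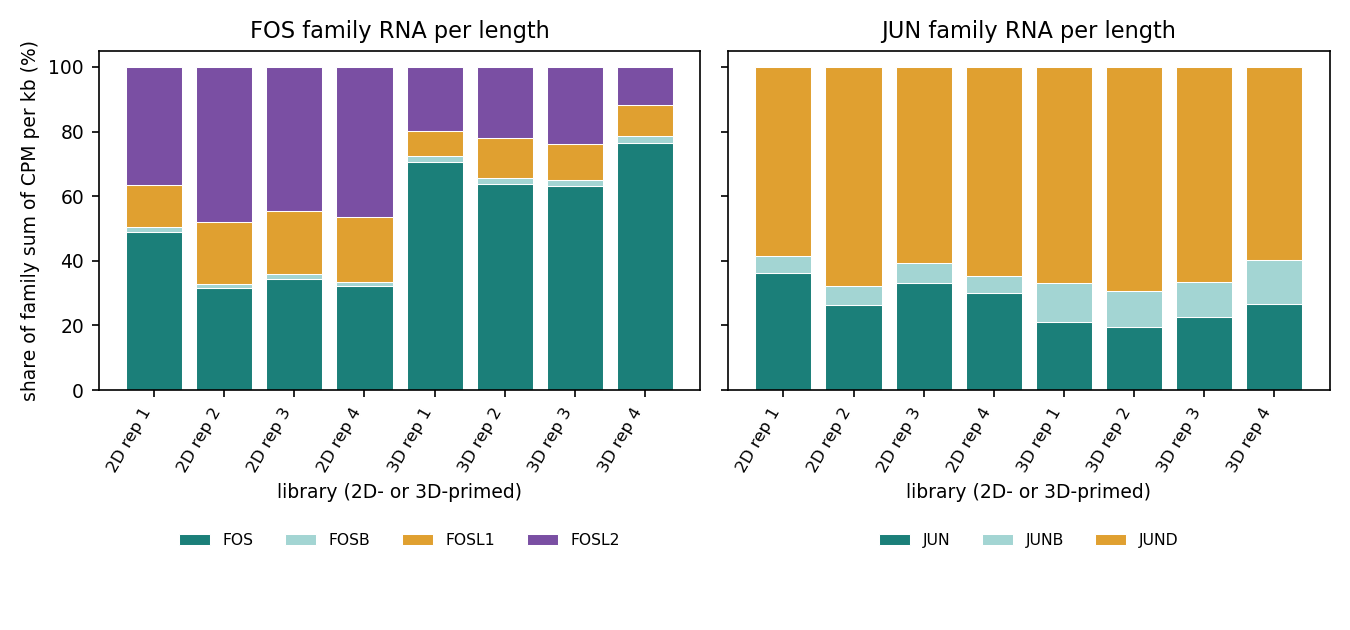
Share of each gene in the summed CPM per kb of the FOS family (left) and the JUN family (right), in percent, with one bar per library. The FOS share lies between 31.7 and 48.8% in 2D-primed and between 63.1 and 76.4% in 3D-primed libraries, while JUND makes up most of the JUN family in all 8.

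The spread between replicate libraries differed among the members. It is given as edgeR's biological coefficient of variation (BCV), the relative spread beyond counting error, beside the value of the trend for genes of the same abundance. EGR1 had a BCV of 0.236 where the trend gives 0.0606, and FOS had 0.202 against 0.063. For JUN the values were 0.169 and 0.0605, for FOSL2 0.126 and 0.0607, for IER2 0.101 and 0.0616, and for JUNB 0.120 and 0.0797. The ratio of BCV to trend was 3.90 for EGR1 and 3.21 for FOS, larger than in 98.9% and 98.3% of all genes tested, whose median ratio was 0.748. MYC (BCV 0.0463, trend 0.0609), JUND (0.0448 and 0.061) and FOSB (0.229 and 0.267) lay below the trend, as the median gene did. Their ratios were larger than in 52.4%, 47.5% and 69.1% of all genes tested, respectively. FOSL1 had 0.166 against 0.129, a ratio larger than in 91.2% of all genes tested.

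**Figure D3:**
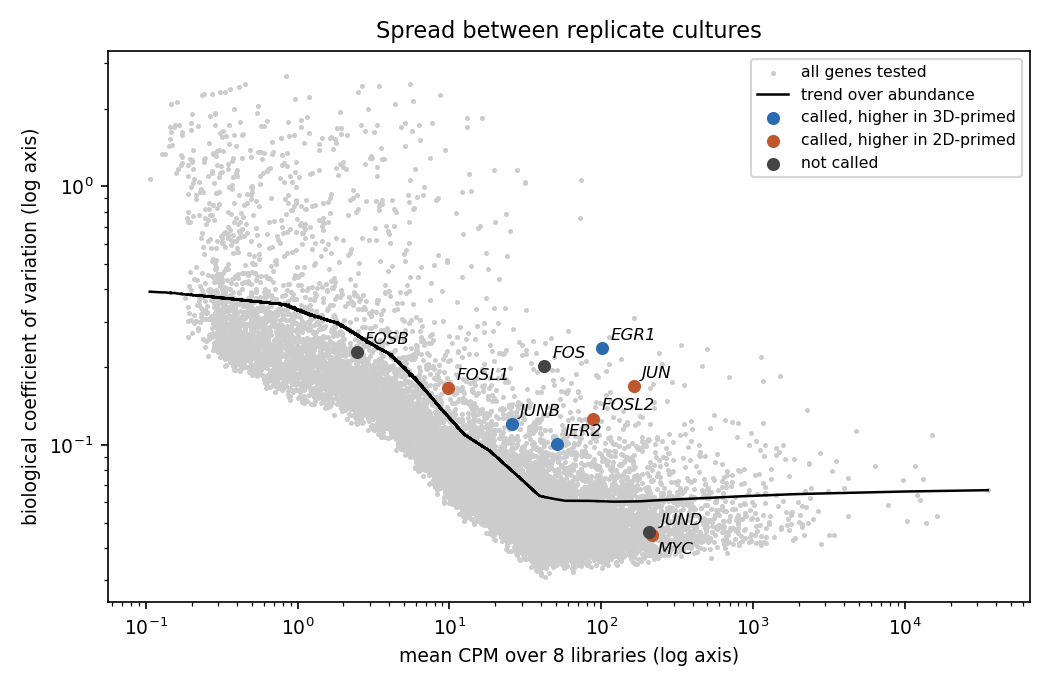
Biological coefficient of variation of all 13943 genes tested against their mean CPM over 8 libraries, both on log axes, with the trend as a line and the 10 members named and coloured by their call. EGR1, FOS and JUN lie far above the trend at their abundance, while JUND, MYC and FOSB lie below it.

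The same libraries were high for several members. 3D-primed replicate 4 was the highest of its group for 8 of the 10 members (FOS, FOSB, FOSL1, JUN, JUNB, EGR1, IER2 and MYC), whereas it was the highest for 24.4% of all genes tested. 2D-primed replicate 1 was the highest of its group for 6 of the 10 (FOS, FOSB, JUN, EGR1, IER2 and MYC), against 24.9% of all genes tested. FOSL1 and FOSL2 did not share this pattern in 2D-primed replicate 1, where both had the lowest level of the group. Of the 24 other immediate early genes tested, described below, 5 were highest in 2D-primed replicate 1 and 7 in 3D-primed replicate 4. More of them were highest in 2D-primed replicate 3 (16) and 3D-primed replicate 3 (13). Of the 14 AP-1 targets tested, 1 was highest in 2D-primed replicate 1 and 4 in 3D-primed replicate 4. The share of counts from mitochondrial genes differed between the groups without overlap, at 1.40 to 1.81% in 2D-primed and 2.47 to 2.98% in 3D-primed libraries, and it was 1.70% in 2D-primed replicate 1 and 2.98% in 3D-primed replicate 4. Heat shock genes were highest in 2D-primed replicate 1 for 8 of the 11 tested, and in 3D-primed replicate 4 for 2 of them. DNAJB1, a co-chaperone of HSP70 named after its values were seen, was at 656 CPM in 2D-primed replicate 1 and at 336 to 421 CPM in the other 2D-primed libraries. The part of these differences in the levels of the members, and in the comparison of the groups, was not tested.

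Without 2D-primed replicate 1 and 3D-primed replicate 4 together, an alternative chosen after the data were seen, the calls of FOSL1, FOSL2, JUN, JUND, EGR1 and IER2 remained, with log2 fold changes of -1.45, -1.60, -1.30, -0.72, 1.65 and 0.75. In the same fit FOS was called higher in 3D-primed cells at a log2 difference of 0.47 (edgeR, adjusted p = 0.0030), and JUNB was not called (0.18, adjusted p = 0.11). MYC (0.01, adjusted p = 0.87) and FOSB (0.04, adjusted p = 0.89) were not called.

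**Figure D4:**
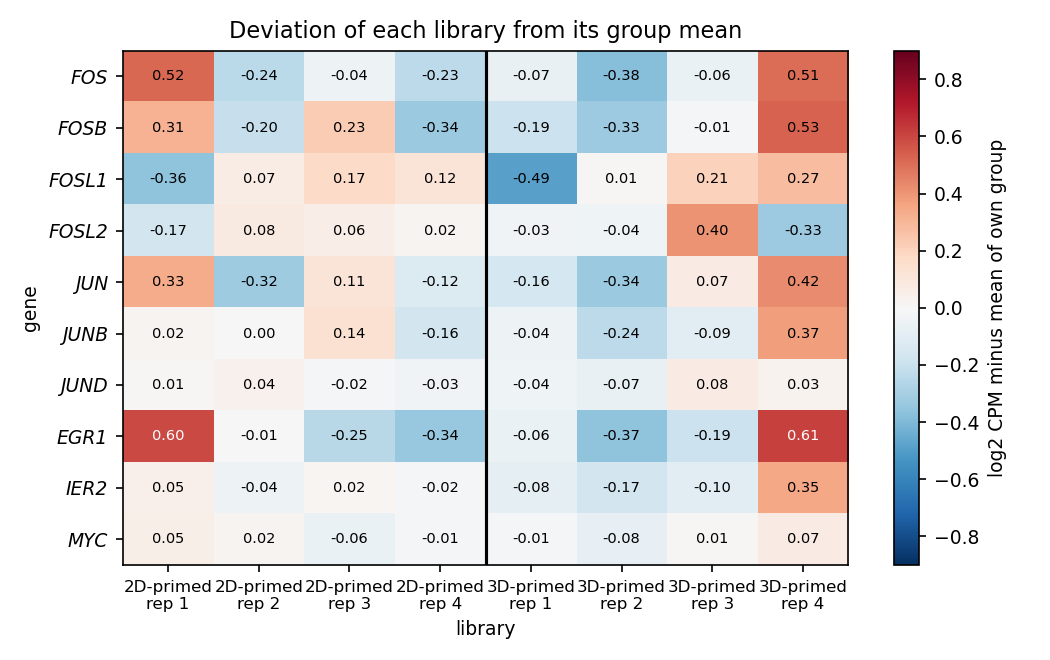
Log2 CPM of each member in each library minus the mean of its own group, with red above and blue below that mean. 3D-primed replicate 4 is above its group mean in all members but FOSL2, and 2D-primed replicate 1 in all but FOSL1 and FOSL2. In 2D-primed replicate 1 the deviations of JUNB, JUND, IER2 and MYC are small.

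By root-mean-square distance of log2 CPM profiles over the 8 libraries, each centred on its mean, the genes most like FOS among 12369 with a mean of at least 1 CPM were GPR39 (distance 0.148), an identifier without a symbol (ENSG00000276618, 0.174) and ZNF347 (0.174). For JUN they were UNC5CL (0.164), NUMBL (0.165) and RNF43 (0.198), and for EGR1 TRIM50 (0.291), HES6 (0.301) and PNPLA3 (0.304). No other member was among the nearest genes of these 3, but with only 3 listed for each this says little about shared behaviour. The neighbours differed in level. GPR39 had means of 1.07 and 1.71 CPM and NUMBL 2.29 and 0.926 CPM in 2D- and 3D-primed libraries, where counting error is large. RNF43 had 192 and 81.8 CPM.

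The factors that pair with FOS or JUN proteins, apart from the members, were tested for 11 of 12 genes, of which 7 were lower and 3 higher in the 3D-primed group (median log2 fold change -0.48). Over all genes tested, 31.6% were called lower and 32.4% higher, with a median of 0.01. MAFK, a small MAF protein, fell from 90.7 ± 11.3 to 30.8 ± 5.78 CPM (SD, n = 4; -1.56 on the log2 scale by edgeR, adjusted p = 2.7e-06). JDP2, a repressor that pairs with JUN proteins, rose from 4.49 ± 0.224 to 10.8 ± 0.593 CPM (1.26 on the log2 scale by edgeR, adjusted p = 3.7e-07). ATF3, which is itself an immediate early gene and is named after its values were seen, had a log2 difference of -1.51 (adjusted p = 6.5e-06 in edgeR). JDP2 was among the 3 partner factors that rose.

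Most of the other immediate early genes listed fell, while EGR1 and IER2 rose. That list was chosen with earlier results of these data known, so its count is no independent contrast with all genes. Of 33 such genes 24 were tested, and 21 were higher in 2D-primed cells, 1 was higher in 3D-primed cells and 2 were not called, with a median log2 fold change of -1.28, where 31.6% of all genes tested were called lower. CCN1, a matricellular protein gene and also a known YAP target, went from 161 ± 15.8 to 11.8 ± 2.38 CPM (SD, n = 4; -3.77 on the log2 scale by edgeR, adjusted p = 1.5e-08). ZFP36, which promotes decay of AU-rich mRNA, went from 59.3 ± 3.96 to 19.0 ± 1.89 CPM (-1.64 on the log2 scale by edgeR, adjusted p = 6.8e-08). Named after their values were seen, the nuclear receptor gene NR4A1 (-1.78), the MAP kinase phosphatase gene DUSP1 (-1.63) and KLF6 (-1.40) were also called, and SGK1 (0.30, adjusted p = 0.048 in edgeR) was the one called higher in 3D-primed cells. BTG1 and BTG2, also named after their values were seen, were not called (-0.03 and 0.01). Of the EGR1 paralogs, likewise named after their values were seen, EGR2 and EGR4 had at most 9 and 3 counts in any library and were not tested, while EGR3 had 1 to 15 counts and a log2 difference of -1.67 (edgeR, adjusted p = 0.021). IER3 and DUSP2 were listed at 0 in every library and are named because of it. Identifiers without a symbol were not searched for either gene, so the 0 does not show that they were silent.

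The factors through which immediate early promoters are switched on were tested for 9 of 9 genes, with 5 lower and 1 higher in the 3D-primed group (median log2 fold change -0.30). The 6 called of 9 are close to the 63.9% called over all genes tested. MRTFA, the actin-regulated coactivator of SRF, went from 41.1 ± 2.09 to 18.05 ± 0.811 CPM (-1.19 on the log2 scale by edgeR, adjusted p = 5.9e-08; SD, n = 4). ELK4, a TCF that binds beside SRF, went from 58.4 ± 2.84 to 23.9 ± 2.58 CPM (-1.29 on the log2 scale by edgeR, adjusted p = 2.1e-07). These are RNA levels, and the phosphorylation that governs most of these factors was not measured. The promoter of EGR1 held both CArG boxes found in the windows searched. A link between the EGR1 level and the RNAs of MRTFA and ELK4 was not tested.

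In the RAS-ERK cascade all 18 genes were tested, and 10 were lower and 2 higher in the 3D-primed group, with 6 not called (median log2 fold change -0.25). The 12 called of 18 are close to the 63.9% of all genes tested, of which 31.6% were lower and 32.4% higher, and these shares also stand against the counts of the kinase and feedback lists that follow. The kinase genes ARAF (-0.74, adjusted p = 2.9e-07 in edgeR) and RPS6KA1 (-0.64, adjusted p = 5.5e-07 in edgeR) had the smallest p. Of the JNK and p38 kinases 13 of 15 were tested, with 7 lower and 4 higher in the 3D-primed group (median -0.13), among them MAPK13 at -1.12 (edgeR, adjusted p = 1.9e-07) and MAP3K1 at -0.57 (edgeR, adjusted p = 2.0e-06). Feedback inhibitors of ERK and EGR1 were tested for 11 of 12 genes, with 6 lower and 3 higher in the 3D-primed group (median -0.13). DUSP5, a nuclear ERK phosphatase, went from 19.1 ± 3.55 to 3.67 ± 1.42 CPM (SD, n = 4; -2.37 on the log2 scale by edgeR, adjusted p = 1.1e-05), whereas NAB1, a corepressor of EGR1, went from 36.2 ± 1.18 to 45.3 ± 0.748 CPM (0.33 on the log2 scale by edgeR, adjusted p = 2.7e-05).

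Genes known as AP-1 targets were tested for 14 of 19, and 12 of them were called, each lower in 3D-primed cells (31.6% of all genes tested), and the other 2 (PLAU at 0.36 and HMGA2 at -0.06, named after their values were seen) were not called (median log2 fold change -1.08). TGFB1 went from 166 ± 12.8 to 65.9 ± 3.18 CPM (SD, n = 4; log2 scale -1.33, adjusted p = 7.0e-08 in edgeR) and CCND1, which encodes cyclin D1, from 370.3 ± 19.3 to 174 ± 8.28 CPM (-1.09 on the log2 scale by edgeR, adjusted p = 7.7e-08). These targets have other regulators too, and their fall beside FOSL1, FOSL2, JUN and JUND was not linked to them by any test. The target list was likewise chosen with earlier results of these data known, so its count is no independent contrast.

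Around MYC, 10 of 11 network genes were tested, with 5 lower and 3 higher in the 3D-primed group (median log2 fold change -0.31). MLXIP, which encodes a partner of the MAX-like protein MLX, had a log2 difference of -0.79 (adjusted p = 1.4e-07 in edgeR). MXD4, an antagonist of MYC, rose from 30.8 ± 2.20 to 67.7 ± 9.42 CPM (SD, n = 4; adjusted p = 2.8e-06 in edgeR). Of 18 known MYC targets, 12 were higher and 4 lower in the 3D-primed group (median 0.23). Over all genes tested, 63.9% were called, 32.4% higher and 31.6% lower. CDK4 (0.85, adjusted p = 9.3e-07 in edgeR) and ODC1 (0.71, adjusted p = 2.0e-06 in edgeR) rose, and the 4 that fell, named after their values were seen, were LDHA, FBL, BOP1 and TERT. These targets moved while the MYC RNA itself was not called.

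Heat shock genes were tested for 11 of 12, with 6 lower and 3 higher in the 3D-primed group (median log2 fold change -0.68), against 31.6% and 32.4% of all genes tested. HSPH1 went from 193 ± 18.9 to 93.0 ± 6.07 CPM (-1.05 on the log2 scale by edgeR, adjusted p = 8.5e-07) and HSF1 had a log2 difference of -0.68 (adjusted p = 7.7e-07 in edgeR). The part of the heat shock genes in the differences of the immediate early genes was not tested.

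**Figure D5:**
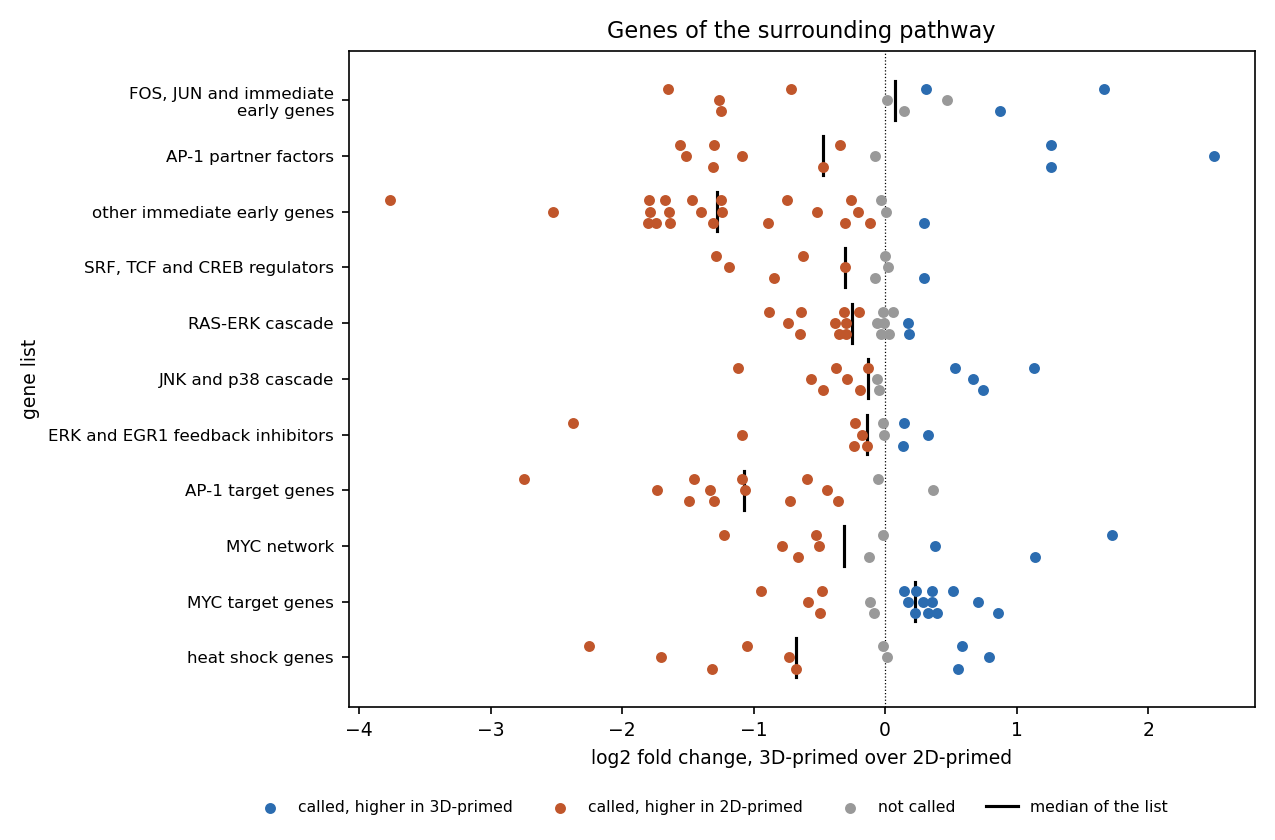
Log2 fold change of 3D-primed over 2D-primed for each tested gene of the members and of 10 gene lists, coloured by call, with a black line at the median of each list. The other immediate early genes (median -1.28) and the AP-1 targets (median -1.08) lie mostly below 0, while the members lie on both sides of 0.

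The labelled cell type was checked against its markers. The 8 hepatocyte markers summed to 68976 to 75051 CPM in 2D-primed and 96484 to 108487 CPM in 3D-primed libraries, and 6 of them were called higher and 2 (APOB and SERPINA1) lower in the 3D-primed group. The 8 fibroblast and stellate cell markers summed to 42.7 to 46.8 and 40.5 to 48.7 CPM, with 6 of them under 1 CPM and THY1 at 0, and the 5 endothelial markers to 5.66 to 7.76 and 4.16 to 5.70 CPM. Leukocyte markers summed to 2195 to 2286 and 2421 to 3027 CPM, nearly all from LYZ, with 3 of 6 under 1 CPM and CD3E at 0.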

How the data were processed

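The 8 HepG2 libraries (4 2D-primed, 4 3D-primed) hold polyadenylated RNA. The authors deposited estimated counts per gene, made by Salmon against Ensembl transcripts of GRCh38 and summed with tximport, one file per library, as whole numbers not scaled to depth. The tximport length setting and a strand setting are not given in the sources used here. Symbols and positions came from GENCODE 44 by identifier (34977 of 38032 matched), and promoters from RefSeq. A gene was kept if 2 or more libraries held 10 or more counts, as in the study's own DESeq2 analysis, and fitted with TMM, glmQLFit and glmQLFTest of edgeR 4.0.16 in R 4.3.3, with group as the only term. The standard error is the log2 fold change divided by the square root of F. The pipeline was tested on simulated data. Figures were drawn with matplotlib 3.10.9.

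The members and lists were chosen with earlier results of these data known, and the lists come from general knowledge. The rule for named genes took the members, the 2 genes of each list with the smallest p, and the 3 nearest profiles of FOS, JUN and EGR1. Other genes named were chosen after their values were seen. Alternatives were DESeq2 1.42.0, limma-voom (limma 3.58.1), RLE, upper quartile and total-count scaling, no filter, filterByExpr, omission of single libraries, a replicate block, and mean transcript length for the shares. Libraries held 21599630 counts or more, counting error is largest for genes with few counts, such as FOSB, and p covers the spread between libraries.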

Additional observations from a re-analysis of the deposited data

Results flagged for a closer look

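In 34 groups of 4 values (the CPM of each member and its share of its family, in each group of libraries), 4 had 1 library far from the other 3 by Dixon's test at 95%, which chance gives in about 1 of 20 groups. The IER2 level of 3D-primed replicate 4 was 82.95 CPM, and the next highest 3D-primed library was at 61.4 CPM. The share of FOS in the FOS family was 48.8% in 2D-primed replicate 1, followed by 34.4%. In the same library the share of FOSL1 was 12.9%, below the 19.2% of the next lowest 2D-primed library. The share of FOSB in 3D-primed replicate 4 was 2.27%, and the next highest was 1.93%. The shares of 1 family in 1 library depend on one another.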

How the results depend on the processing

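The calls of FOSL1, FOSL2, JUN, JUND, EGR1 and IER2 kept their direction and their side of the threshold under every alternative run. Those of FOS and JUNB did not, and the cause was not tested. With the replicate number as a block, the log2 fold change of JUNB was 0.30 (adjusted p = 0.079 in edgeR), and in limma-voom 0.30 (adjusted p = 0.0504), both short of the threshold. The block changed no other call among the members and gave 8490 genes called in place of 8916. Over all genes tested, same-numbered libraries did not deviate together (correlations of their deviations from -0.0433 to 0.0574). This cannot show whether they shared a seeding or handling step, which the labels do not state. Leaving out 2D-primed replicate 1 and 3D-primed replicate 4 together gave 0.47 for FOS (called) and 0.18 for JUNB (not called). Across fits without 1 library, log2 values ran from 0.27 to 0.67 for FOS, from 0.17 to 0.38 for JUNB, from -0.069 to 0.25 for FOSB (-0.069 without 3D-primed replicate 4) and from -0.0067 to 0.036 for MYC (-0.004 without 2D-primed replicate 3 and -0.0067 without 3D-primed replicate 4). Mean transcript length in place of the longest moved the 3D-primed shares to 75.0% for FOS, 1.43% for FOSB and 7.79% for FOSL1, and the 2D-primed share of FOSB to 1.06%. It moved JUN to 23.0 and 16.2%, JUNB to 4.10 and 8.59% and JUND to 72.9 and 75.2% in 2D-primed and 3D-primed cells, and the groups stayed apart in the same shares. Upper quartile scaling split the calls over all genes into 5095 higher and 3975 lower in 3D-primed cells, against 4515 and 4401. FOSB, at 43 to 91 counts, is the member that depth limits most.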
